A study of Mus musculus with 6 samples.

Results

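The genes described here are 10 receptor tyrosine kinases and ligands with a known place in sarcoma biology. The receptors are MET, AXL, KIT, FGFR1, DDR2 and ROR2, and the ligands are HGF, GAS6, FGF1 and FGF2. They were found by exact symbol among the 23284 gene symbols of the deposited expression table, and all 10 were present. RNA came from 6 xenograft tumours of STS26T, a human malignant peripheral nerve sheath tumour (MPNST) cell line, implanted subcutaneously in athymic nude mice, which lack T cells. In 3 tumours, called anti-ENG, the mice received TRC105 and M1043, monoclonal antibodies against human and mouse endoglin (ENG). In the other 3, called IgG control, they received an IgG control. Each arm was dosed intraperitoneally at 10 mg/kg, 2 times a week for 3 weeks, starting 1 week after injection of the cells. All 6 tumours come from 1 cell line, so they carry 1 tumour genotype. The question is how these kinases and ligands are expressed in STS26T tumours, and whether their RNA differed when endoglin, a co-receptor of the TGF-beta family, was targeted.

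Receptor tyrosine kinases span the cell membrane, bind a ligand outside the cell and phosphorylate tyrosines inside it, which recruits adaptors that feed the RAS-ERK, PI3K-AKT and STAT pathways. MET binds HGF, the hepatocyte growth factor or scatter factor, which is made as an inactive chain and cut by proteases. AXL belongs to the TAM family with TYRO3 and MERTK and binds GAS6. KIT binds KITLG, stem cell factor, and drives mast cells, melanocytes and gastrointestinal stromal tumours. FGFR1 binds fibroblast growth factors such as FGF1 and FGF2, together with heparan sulphate. DDR2 is a receptor for fibrillar collagen found mainly in mesenchymal cells, and ROR2 is a receptor for WNT5A. MET has been studied as a drug target in MPNST.

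Expression is given as FPKM, fragments per kilobase of transcript scaled to the fragments mapped, so levels can be set side by side between genes. The values were made against the human genome, so RNA of the mouse host enters them only where its reads aligned to human sequence. The handling of mouse reads is not given. Library depth in reads is unknown, but the step that a single fragment makes in genes of at most 0.05 FPKM gave depths, relative to IgG control 1, of 1.14 to 1.46 in the anti-ENG tumours and 1 to 1.18 in the IgG control tumours. The lowest depth was that of IgG control 1 and the highest, 1.46, that of anti-ENG 1. IgG control 1 and anti-ENG 1 also stood apart from the rest in expression. They lay at opposite ends of a first principal component that held 44.6% of the variance. The part of depth in this was not tested. The members' fold changes without either tumour are in the plot of fold changes, and those that moved most are given in the text. The Schwann cell markers S100B and SOX10, often used for nerve sheath tumours, were at most 0.104 and 0.188 FPKM in any tumour, so these defining markers were near 0. ENG itself averaged 23.9 ± 7.39 FPKM in anti-ENG tumours and 29.0 ± 10.4 FPKM in IgG control tumours (SD, n = 3 each). Its log2 fold change was -0.26 (limma adjusted p = 0.751).

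The 10 genes covered a wide range of levels. AXL, HGF and MET were abundant, with means over the 6 tumours of 53.0, 48.8 and 37.2 FPKM, and each of the 3 lay above at least 88.2% of the genes detected in any tumour. GAS6 followed at 23.9 FPKM, then DDR2 at 10.5 and FGFR1 at 9.52. FGF1, FGF2 and ROR2 were low, at 2.86, 1.198 and 1.16 FPKM. KIT was listed at 0 in every tumour. Many neighbours in this order did not differ beyond their spread. AXL exceeded HGF in 4 of 6 tumours, HGF exceeded MET in 5, MET exceeded GAS6 in 5 and DDR2 exceeded FGFR1 in 4. GAS6 was above DDR2 in 6 of 6 tumours, although their ranges over the tumours overlapped. FGFR1 lay above FGF1 in 6 of 6 with ranges that did not overlap. FGF1 exceeded FGF2 in 5 tumours, and FGF2 exceeded ROR2 in 4.

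**Figure D1:**
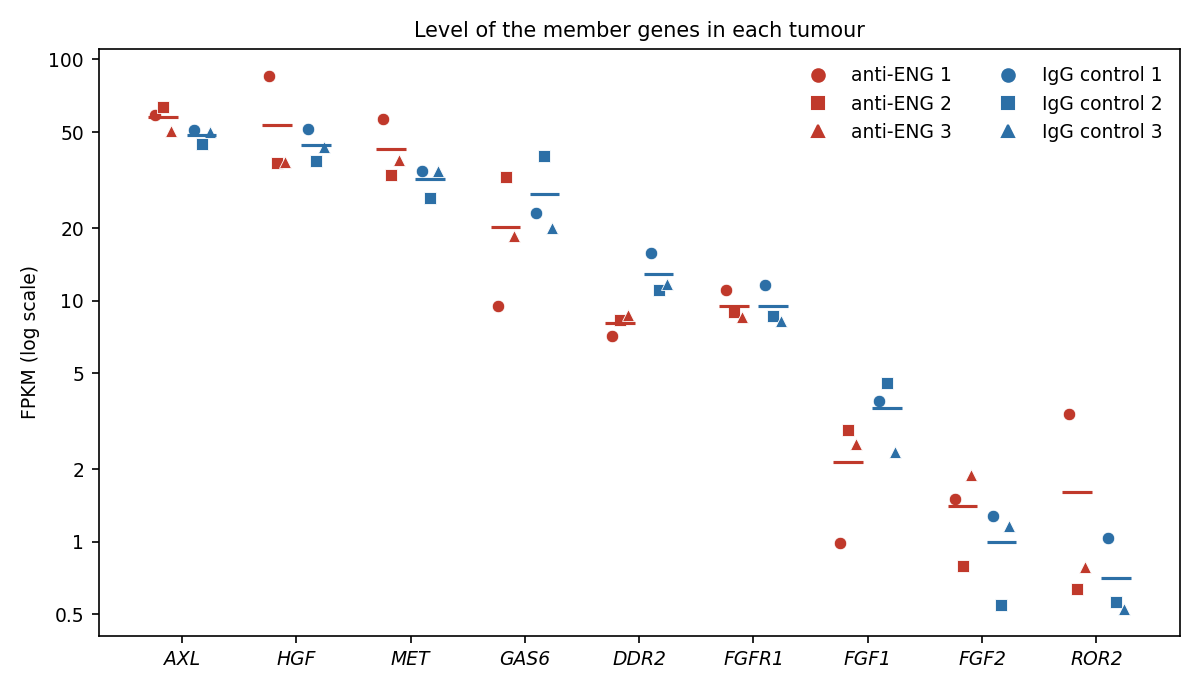
FPKM of the 9 members above 0 in each tumour, on a log axis, ordered by mean level; red marks are the 3 anti-ENG tumours, blue marks the 3 IgG control tumours, and horizontal lines the group means. AXL, HGF and MET are the most abundant, the groups of DDR2 do not overlap, and anti-ENG 1 (red circle) lies far from the other anti-ENG tumours for HGF, GAS6, FGF1 and ROR2.

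MET and its ligand HGF were expressed together at comparable levels. MET had 56.5, 33.1 and 38.2 FPKM in anti-ENG 1, 2 and 3, and 34.3, 26.7 and 34.4 FPKM in IgG control 1, 2 and 3. The highest value belonged to anti-ENG 1, and anti-ENG 2 lay below 2 of the IgG control tumours, so the groups overlapped. The log2 fold change of MET, anti-ENG minus IgG control on the log2(FPKM + 1) scale, was 0.38 (95% interval -0.10 to 0.87, limma adjusted p = 0.552), and the two-sided exact permutation p was 0.3, where 0.1 is the smallest that 3 against 3 can give. Without anti-ENG 1 it was 0.17.

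HGF had 85.5, 37.2 and 37.4 FPKM in anti-ENG 1, 2 and 3, against 51.4, 37.9 and 43.2 FPKM in IgG control 1, 2 and 3. Anti-ENG 1 was the highest of all tumours, and the remaining anti-ENG tumours were below all IgG control tumours. For HGF the log2 fold change was 0.17 (95% interval -0.57 to 0.90, limma adjusted p = 0.850), and it turned to -0.23 without anti-ENG 1. Per tumour, HGF was 0.981 to 1.51 times MET. Between the lowest and the highest tumour HGF varied 2.30-fold and MET 2.12-fold, so the ratio had the narrower range. That rested on anti-ENG 1, where both genes were highest. Without anti-ENG 1, HGF ran from 37.2 to 51.4 FPKM and MET from 26.7 to 38.2 FPKM. The ratio kept its lowest value, in anti-ENG 3, and nearly its highest, in IgG control 1. It then varied more than either gene alone, so the range does not show that HGF and MET moved together.

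Genes that activate HGF or partner with MET were read from a list of 16, of which 10 entered the test. None passed an adjusted p of 0.05 in either direction and none had an unadjusted p under 0.05 (0 and 0 genes); 2 had estimates above 0 and 8 below, with a median log2 fold change of -0.21 against 0.0065 over all 12586 genes tested. HGFAC, the HGF activator protease, reached at most 0.116 FPKM, while PLAU, the urokinase that can also cut HGF, had 58.9, 42.2 and 43.0 FPKM in anti-ENG 1, 2 and 3 and 116, 38.6 and 37.3 FPKM in IgG control 1, 2 and 3. The HGF activator inhibitors were low, with SPINT1 at 2.56 ± 1.85 FPKM in anti-ENG tumours and 3.04 ± 1.33 FPKM in IgG control tumours (SD, n = 3 each), and SPINT2 at most 0.123 FPKM in any tumour. The tetraspanin CD151, which associates with MET and integrins, averaged 226 ± 14.1 FPKM in anti-ENG tumours and 194 ± 5.63 FPKM in IgG control tumours (SD, n = 3 each). Its groups did not overlap, as was so in 17.3% of all genes tested. The log2 fold change was 0.22 (limma adjusted p = 0.542). It was 0.10 with equal sums of FPKM, 0.08 with quantile and 0.02 with cyclic loess normalization. The log2 fold changes were -0.33 for MST1R, the receptor related to MET, and -0.27 for its ligand gene MST1. MST1R was -0.13 without anti-ENG 1, and MST1 was -0.03 without IgG control 2. SERPINA5, a serpin that inhibits the HGF activator, had -0.63, a value that was 0.0050 without anti-ENG 1.

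AXL was the most abundant member and varied little. It had 58.8, 63.2 and 50.4 FPKM in anti-ENG 1, 2 and 3, against 50.9, 44.7 and 49.8 FPKM in IgG control 1, 2 and 3. Anti-ENG 3 lay just below IgG control 1, and that single crossing made the groups overlap. The log2 fold change was 0.24 (95% interval -0.05 to 0.53, limma adjusted p = 0.547; exact permutation p = 0.2, two-sided), and AXL varied 1.42-fold between its lowest and its highest tumour. It was 0.12 when each tumour was rescaled to the same sum of FPKM, under which the median over all genes became -0.10.

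GAS6, the AXL ligand, varied far more than its receptor. It had 9.50, 32.4 and 18.4 FPKM in anti-ENG 1, 2 and 3, against 23.0, 39.9 and 20.0 FPKM in IgG control 1, 2 and 3. The lowest value belonged to anti-ENG 1 and the highest to IgG control 2, with the groups overlapping. For GAS6 the log2 fold change was -0.53 (95% interval -1.53 to 0.46, limma adjusted p = 0.654). It was -0.11 without anti-ENG 1 and -0.24 without IgG control 2. GAS6 stood at 0.162 to 0.893 times the level of AXL per tumour.

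The other TAM genes were much lower than AXL. TYRO3 averaged 5.94 ± 0.363 FPKM in anti-ENG tumours and 5.55 ± 0.237 FPKM in IgG control tumours (SD, n = 3 each), and AXL was 8.44 to 11.3 times TYRO3 in every tumour. MERTK was at most 0.201 FPKM and PROS1, the other TAM ligand, at most 1.36 FPKM. Of the 6 genes listed beside AXL and GAS6, 3 entered the test and 0 passed in either direction by limma (0 also at an unadjusted p under 0.05). TYRO3 had a log2 fold change of 0.08, which was -0.02 with equal sums of FPKM. LGALS3, which encodes galectin-3, a ligand reported for MERTK, had one of 0.02, and IL15RA, whose product can associate with AXL, had -0.23, which turned to 0.14 without anti-ENG 1 and 0.07 without IgG control 1.

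KIT was listed at 0 FPKM in all 6 tumours, so no fold change is given. An exact 0 in such a table can also be a failed estimate, and RPS17L, a copy of a ribosomal protein gene, was likewise listed at 0. Mast cell markers, the genes of another cell type that carries KIT, were at or near 0: TPSB2, CPA3 and CTSG were at 0 in every tumour, and the 8 markers summed to 0 to 0.0948 FPKM in anti-ENG tumours and 0.0649 to 0.167 FPKM in IgG control tumours. Mast cells in these xenografts should be those of the mouse, so such human values do not tell whether mast cells were present. The ligand gene KITLG was expressed. It had 28.7, 17.4 and 13.5 FPKM in anti-ENG 1, 2 and 3, against 13.4, 15.5 and 17.2 FPKM in IgG control 1, 2 and 3, with anti-ENG 1 the highest and the groups overlapping. Its log2 fold change of 0.29 (limma adjusted p = 0.680) was -0.00039 without anti-ENG 1. Of the 6 genes in the list of KIT ligand and related receptors, 4 were tested and 0 passed in either direction by limma (0 at an unadjusted p under 0.05). FLT3LG, the FLT3 ligand, had an estimate of -0.53 on the log2 scale, CSF1, the macrophage growth factor, had -0.57, and CSF1R, its receptor, had -0.08. Without anti-ENG 1 these were -0.29 for FLT3LG, -0.14 for CSF1 and 0.09 for CSF1R, and CSF1 was -0.13 without IgG control 1. FLT3 itself was listed at 0 in every tumour.

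FGFR1 was close to equal in the 2 groups. It had 11.1, 8.94 and 8.59 FPKM in anti-ENG 1, 2 and 3, and 11.6, 8.65 and 8.21 FPKM in IgG control 1, 2 and 3. The tumour numbered 1 was the highest in each group, and the rest lay close together. The log2 fold change was 0.01 (95% interval -0.37 to 0.39, limma adjusted p = 0.981), and its sign turned with 2 of the scalings tried, at -0.0031 with equal upper quartiles and -0.10 with equal sums of FPKM. FGFR1 was the main FGF receptor gene. FGFR2 and FGFR3 were at most 0.213 and 0.0276 FPKM, and FGFR4 had 0.723, 0.478 and 3.97 FPKM in anti-ENG 1, 2 and 3 and 0.932, 0.930 and 3.98 FPKM in IgG control 1, 2 and 3. FGFR4 was thus high in 1 tumour of each group. FGFRL1, a receptor without the kinase domain, averaged 13.7 ± 3.41 FPKM in anti-ENG tumours and 11.2 ± 1.28 FPKM in IgG control tumours (SD, n = 3 each).

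The FGF ligands among the members were low. FGF1 had 0.986, 2.92 and 2.55 FPKM in anti-ENG 1, 2 and 3, against 3.82, 4.55 and 2.35 FPKM in IgG control 1, 2 and 3. Anti-ENG 1 was the lowest tumour, and IgG control 3 lay below the other anti-ENG tumours, so the groups overlapped. For FGF1 the log2 fold change was -0.57 (95% interval -1.28 to 0.14, limma adjusted p = 0.549), and -0.26 without anti-ENG 1. FGF2 had 1.51, 0.796 and 1.897 FPKM in anti-ENG 1, 2 and 3, against 1.27, 0.549 and 1.16 FPKM in IgG control 1, 2 and 3. The tumour numbered 2 was the lowest in each group and anti-ENG 3 the highest overall. For FGF2 the log2 fold change was 0.26 (95% interval -0.34 to 0.85, limma adjusted p = 0.712), and leaving out a tumour brought it to 0.09 (IgG control 2) or 0.11 (anti-ENG 3). FGF1 was above FGF2 in 5 of 6 tumours, with the ratio at 0.654 in anti-ENG 1 and up to 8.30 in IgG control 2.

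The FGF2 locus overlaps NUDT6, a nudix hydrolase gene on the opposite strand. Strand use in the counting is not given, so fragments of either gene may be counted for the other. NUDT6 had 7.60, 7.004 and 6.42 FPKM in anti-ENG 1, 2 and 3, against 5.41, 5.19 and 4.89 FPKM in IgG control 1, 2 and 3, a log2 fold change of 0.38 (limma adjusted p = 0.529). Its groups did not overlap, as was so in 17.3% of all genes tested. The level of NUDT6 was above FGF2 in 6 of 6 tumours.

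Of 19 other FGF receptors and co-receptors, 11 were tested, with 7 estimates above 0, 4 below and a median log2 fold change of 0.21. By limma 0 passed in either direction. Over all genes tested, 9.17% had an unadjusted p under 0.05, with 5.56% higher. In this list 2 of 11 did, both with higher estimates. These were NCAM1, a cell adhesion molecule that can bind FGFR1, and SDC1, the heparan sulphate proteoglycan syndecan-1. NCAM1 had 6.62, 4.98 and 10.8 FPKM in anti-ENG 1, 2 and 3, against 4.49, 4.78 and 2.64 FPKM in IgG control 1, 2 and 3. The difference was 0.74 on the log2 scale (SE 0.28, limma adjusted p = 0.529), and 0.47 without anti-ENG 3. Its groups did not overlap, and anti-ENG 2 lay close to IgG control 2. Groups that did not overlap were found in 2 of these 11 genes and in 17.3% of all genes tested. With so few genes, neither count is read as a result. SDC1 had a log2 fold change of 0.37, SDC2 one of 0.35, and L1CAM, another adhesion molecule, one of -0.78. SDC2 was 0.16 without anti-ENG 2, and 0.23 without IgG control 1. L1CAM was -0.23 without anti-ENG 1, and -0.42 without IgG control 2. Of 27 other FGF ligands and carriers, 7 were tested, 7 others were listed at 0 in every tumour, and 0 passed in either direction by limma (0 at an unadjusted p under 0.05), with a median of -0.06. FGF13, an intracellular member of the family, had a log2 fold change of 0.50, which was 0.13 without IgG control 1. The calcium-binding S100A13, which takes part in FGF1 export, had 0.24, which was 0.11 without anti-ENG 2 and 0.09 without IgG control 3, and the carrier gene FGFBP3 had -0.19, which was 0.03 without anti-ENG 3.

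DDR2 was the 1 member whose groups did not overlap. It had 7.16, 8.29 and 8.75 FPKM in anti-ENG 1, 2 and 3, against 15.8, 11.02 and 11.7 FPKM in IgG control 1, 2 and 3. Every anti-ENG tumour was below every IgG control tumour, with IgG control 1 the highest by a margin. The mean was 8.06 ± 0.819 FPKM in anti-ENG tumours and 12.8 ± 2.56 FPKM in IgG control tumours (SD, n = 3 each). The log2 fold change was -0.60, which is 1.52-fold lower (95% interval of the log2 value -0.96 to -0.23, unadjusted p = 0.0057), but the limma adjusted p over all genes was 0.529. The exact permutation p was 0.1, two-sided, the smallest that this design allows. DDR2 was -0.45 without IgG control 1, -0.53 without anti-ENG 1 and -0.38 without both, and over the 19 alternatives tried its adjusted p ran from 0.377 to 0.831.

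Among all genes tested by limma, 0 passed the adjusted threshold of 0.05, which is 0% of 12586, and so 0 of the 9 members tested passed. Without adjustment, 1154 genes or 9.17% had a p under 0.05, of which 5.56% of all genes were higher and 3.61% lower in anti-ENG tumours; among the members DDR2 alone did. These were 700 genes higher and 454 lower, a split that depended on scaling, at 482 and 518 with equal upper quartiles, 453 and 498 with cyclic loess and 168 and 1088 with equal sums of FPKM. Groups that did not overlap were found in 1 of 9 members and in 17.3% of all genes tested, 10.6% higher and 6.75% lower in anti-ENG tumours. A count of 1 in 9 members is thus not above the background. The estimates of 6 members were above 0 and those of 3 below, against 51.2% and 48.8% of all genes tested. KIT did not enter the test. ROR2 passed the filter of a mean of 1 FPKM through anti-ENG 1, and FGF2 passed it although its IgG control mean was 0.995 FPKM.

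The fibrillar collagen genes whose products DDR2 binds also had lower estimates. Of 8 genes for DDR1 and collagens, 6 were tested, with the receptor DDR1 among them at -0.21. In 6 of 6 the log2 fold change was below 0, against 48.8% of all genes tested, with a median of -0.62. By limma 0 passed (0 at an unadjusted p under 0.05). COL1A1, a chain of type I collagen, had 160, 401 and 444 FPKM in anti-ENG 1, 2 and 3, against 749, 486 and 404 FPKM in IgG control 1, 2 and 3. Anti-ENG 1 was lowest and IgG control 1 highest, and the groups overlapped. COL1A1 had a log2 fold change of -0.79, COL1A2 one of -1.03, COL3A1 one of -0.83 and COL5A1 one of -0.40. Leaving out anti-ENG 1 gave -0.32 for COL1A1, -0.24 for COL1A2, -0.43 for COL3A1 and -0.18 for COL5A1. Leaving out IgG control 1 as well gave -0.07 for COL1A1, -0.03 for COL1A2, -0.18 for COL3A1 and -0.09 for COL5A1. DDR1, the epithelial relative of DDR2, averaged 22.7 ± 4.01 FPKM in anti-ENG tumours and 26.1 ± 1.08 FPKM in IgG control tumours (SD, n = 3 each), and DDR2 was 0.323 to 0.60 times DDR1 per tumour.

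Fibroblasts are another cell type that carries DDR2, and most of their markers also had lower estimates. Of 12 fibroblast markers 12 were tested, 11 had estimates below 0, against 48.8% of all genes tested, and the median log2 fold change was -0.81. By limma 0 passed, and 2 had an unadjusted p under 0.05, against 9.17% of all genes tested. The groups did not overlap in 1 of the 12, POSTN, against 17.3% of all genes tested. The marker list includes PDGFRA and the 3 collagen genes COL1A1, COL1A2 and COL3A1. Its summed level was 400 to 1017 FPKM in anti-ENG tumours and 905 to 1629 FPKM in IgG control tumours, and no marker was at 0. Without PDGFRA and those collagens the other 8 summed to 102.5 to 178 FPKM in anti-ENG tumours and 193.5 to 258 FPKM in IgG control tumours. Their part in the DDR2 difference was not tested. Fibroblasts in these xenografts should be cells of the mouse, while the values were made against the human genome. RNA of the human tumour cells and mouse reads that aligned to human sequence cannot be told apart here. In bulk tissue, fewer cells of a type and less RNA per cell cannot be told apart either. Endothelial markers, whose cells should be those of the mouse, summed to 7.73 to 10.4 FPKM in anti-ENG tumours and 6.52 to 10.0 FPKM in IgG control tumours. Macrophage and leukocyte markers, whose cells should also be those of the mouse, summed to 82.6 to 109 FPKM in anti-ENG tumours. In IgG control tumours they summed to 72.4 to 127 FPKM. Most of it was CD68. Over the tumours EMR1 had 7.75 to 13.9 FPKM and CSF1R 1.12 to 2.17 FPKM, with MRC1, C1QA and C1QB at 0.

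ROR2 was low in 5 tumours and higher in 1. It had 3.40, 0.635 and 0.784 FPKM in anti-ENG 1, 2 and 3, against 1.04, 0.564 and 0.526 FPKM in IgG control 1, 2 and 3. The remaining anti-ENG tumours lay within the range of the IgG control tumours. The log2 fold change was 0.47 (95% interval -0.44 to 1.37, limma adjusted p = 0.666), and 0.01 without anti-ENG 1. The related receptor gene ROR1 averaged 3.10 ± 1.46 FPKM in anti-ENG tumours and 2.44 ± 0.771 FPKM in IgG control tumours (SD, n = 3 each), and ROR2 exceeded ROR1 in anti-ENG 1 alone, where it was 2.22 times as high.

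WNT5A, the ligand of ROR2, was more abundant than its receptor. It had 9.15, 16.8 and 31.9 FPKM in anti-ENG 1, 2 and 3, against 57.6, 26.3 and 24.7 FPKM in IgG control 1, 2 and 3, a log2 fold change of -0.93 (limma adjusted p = 0.539). Anti-ENG 1, the tumour highest for ROR2, was the lowest for WNT5A, so the ratio of WNT5A to ROR2 was 2.69 there and 26.5 to 55.4 in the other tumours. The WNT5A value was -0.51 without anti-ENG 1, -0.55 without IgG control 1 and -0.13 without both. Of 20 genes of the ROR and WNT5A branch 17 were tested, 9 with estimates above 0 and 8 below, at a median of 0.06. By limma 0 passed in either direction, and DVL3 alone had an unadjusted p under 0.05, against 9.17% of all genes tested. Groups that did not overlap were found in 1 higher and 1 lower of the 17 genes, against 17.3% of all genes tested. Neither count is read as a result. DVL3, a dishevelled adaptor, had 28.1, 31.4 and 34.3 FPKM in anti-ENG 1, 2 and 3, against 41.4, 39.5 and 39.2 FPKM in IgG control 1, 2 and 3, with groups that did not overlap (log2 fold change -0.35, limma adjusted p = 0.529). The estimates were 0.18 for its relative DVL1 and 0.27 for the receptor gene FZD3, on the log2 scale. DVL1 was 0.10 without IgG control 1 and 0.07 with equal sums of FPKM, and FZD3 was 0.17 without anti-ENG 3.

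**Figure D2:**
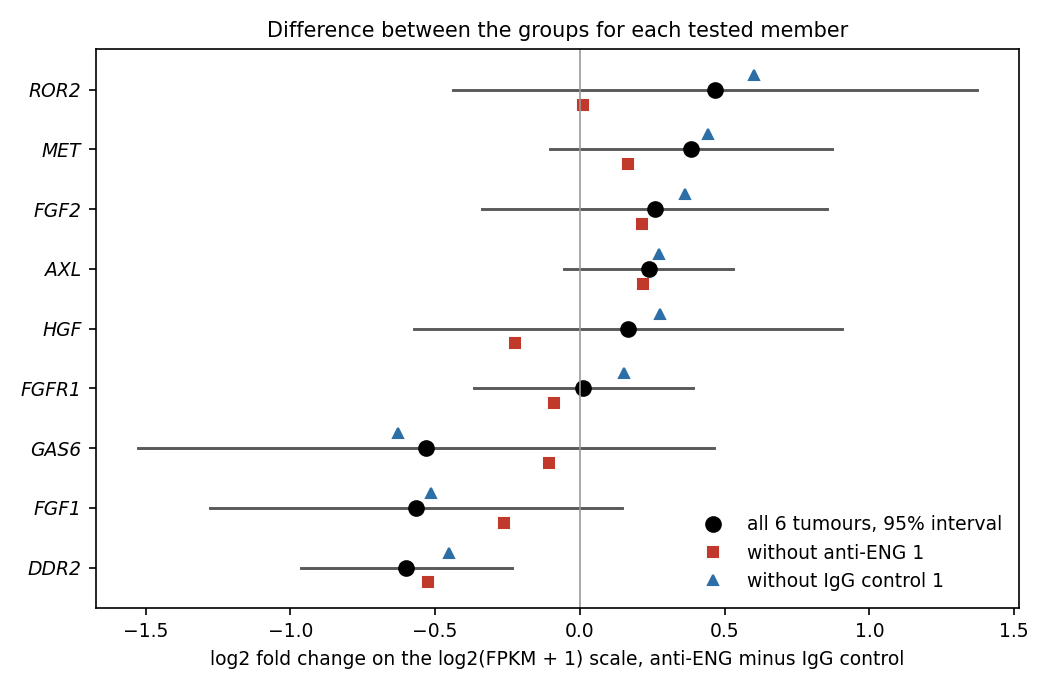
Log2 fold change of the 9 tested members on the log2(FPKM + 1) scale, anti-ENG minus IgG control; black points use all 6 tumours with limma's 95% interval as the line, red squares leave out anti-ENG 1 and blue triangles leave out IgG control 1. The interval of DDR2, -0.96 to -0.23, is the 1 that does not reach 0 before adjustment, and the values of ROR2, HGF, GAS6 and MET move towards 0 or past it without anti-ENG 1.

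Anti-ENG 1 stood apart for most of the members. It was the highest or the lowest of the 6 tumours in 6 of the 9 tested members, highest for MET, HGF and ROR2 and lowest for GAS6, FGF1 and DDR2. Over all 12586 genes tested it was at an end in 55.9%, so this share is not particular to the members. IgG control 1 was at an end in 2 members, and IgG control 2 in 5, with GAS6 and FGF1 highest there and MET, AXL and FGF2 lowest. The root mean square deviation from a gene's mean, in log2 units, was smallest for AXL at 0.162 and FGFR1 at 0.176, and largest for GAS6 at 0.624.

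**Figure D3:**
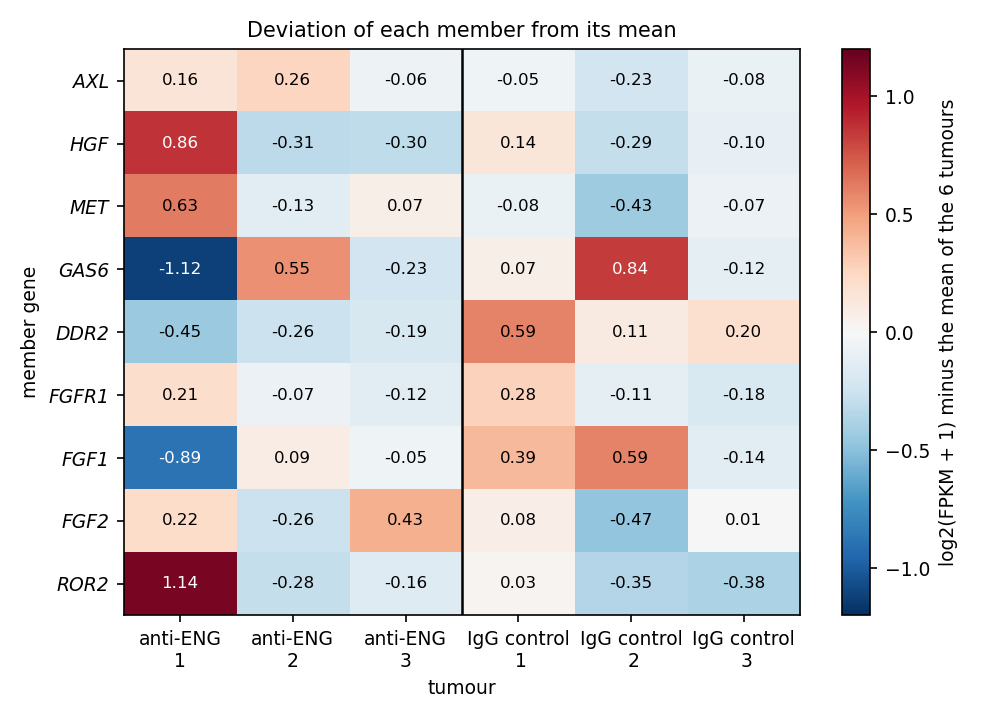
Each cell gives a member's log2(FPKM + 1) in 1 tumour minus its mean over the 6 tumours, red above and blue below; the 3 anti-ENG tumours are left of the black line and the 3 IgG control tumours right of it. Anti-ENG 1 has the widest deviations, 1.14 for ROR2 and -1.12 for GAS6, while DDR2 is below 0 in each anti-ENG tumour and above 0 in each IgG control tumour.

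Genes outside the members with the most similar profile were sought among 11880 other tested genes, by the root mean square distance between centred log2(FPKM + 1) values over the 6 tumours. The nearest to DDR2 was PCOLCE, the enhancer of procollagen C-proteinase, at a distance of 0.0816. It had 123, 128 and 139 FPKM in anti-ENG 1, 2 and 3, against 254, 180 and 165 FPKM in IgG control 1, 2 and 3. PCOLCE was picked for its likeness to DDR2 in these tumours, so its lower values in each anti-ENG tumour follow from that choice. Next came NLGN2, a neuroligin of synapses, at 0.0956. GAS6 was nearest to the histone genes HIST1H1C at 0.0746 and HIST1H2BK at 0.131, and FGF1 to THBS3, a thrombospondin, at 0.0682 and to MEIS3 at 0.116. MET was nearest to CHCHD8 at 0.0626 and PQBP1 at 0.0684, and HGF to LRRC8C, a volume-regulated anion channel subunit, at 0.113 and VLDLR at 0.131. FGF2 was nearest to APLP2 at 0.0489 and RRP12 at 0.0663, and ROR2 to C11orf9 at 0.15 and ADTRP at 0.158. The steadier genes had closer neighbours, with FGFR1 near PLEKHA5 at 0.0278 and SPIRE1 at 0.0380, and AXL near NDUFS3 and SNX24 at 0.0401 each. With 6 tumours, 1 of them at an end for most genes, such likeness is a description of these libraries.

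Among 58 receptor tyrosine kinase genes, 29 had a mean of at least 1 FPKM and 3 were listed at 0 in every tumour, KIT among them. By mean level over all 6 tumours AXL ranked 1 and MET 3, with the PDGF receptor genes PDGFRB and PDGFRA at ranks 2 and 4. The order differed between the groups. In anti-ENG tumours AXL ranked 1, MET 2, RYK 3, PDGFRB 4 and PDGFRA 5, while in IgG control tumours PDGFRB ranked 1, AXL 2, PDGFRA 3 and MET 4, and the difference in rank was not tested. RYK, DDR1, EPHA2, EPHB2, EGFR and EPHB6 completed the first 10. DDR2 ranked 12 and FGFR1 13 over all 6 tumours. AXL and MET together held 34.0, 26.8 and 24.9% of the summed FPKM of these 58 genes in anti-ENG 1, 2 and 3, against 19.3, 19.6 and 24.1% in IgG control 1, 2 and 3. The groups did not overlap in this share, by 24.9% in anti-ENG 3 against 24.1% in IgG control 3. Taken alone, AXL and MET each overlapped, and 17.3% of all genes tested did not. The share also moves with the other receptors. The summed FPKM of the 58 genes was 442 in IgG control 1 and 340 to 365 in the other tumours. PDGFRB averaged 26.6 ± 3.85 FPKM in anti-ENG tumours and 54.1 ± 19.5 FPKM in IgG control tumours (SD, n = 3 each), with a difference of -0.94 on the log2 scale (limma adjusted p = 0.529). Pericyte and smooth muscle markers, 8 genes that include PDGFRB, summed to 41.1 to 55.3 FPKM in anti-ENG tumours and 55.4 to 106 FPKM in IgG control tumours. Without PDGFRB the other 7 summed to 18.9 to 26.7 FPKM in anti-ENG tumours and 20.2 to 31.6 FPKM in IgG control tumours, which overlapped, and RGS5 and CSPG4 among them had estimates of 0.25 and 0.30. Pericytes, too, should be cells of the mouse here, and the part of these markers in the shares was not tested.

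**Figure D4:**
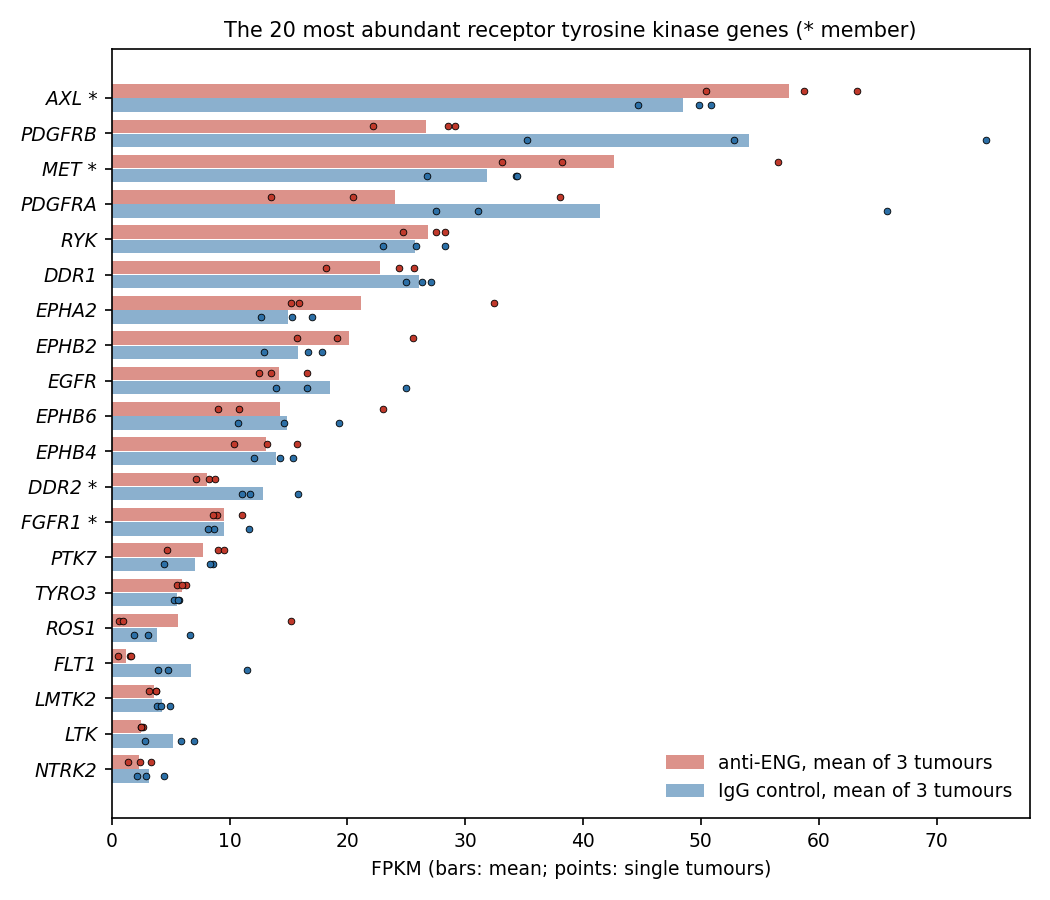
FPKM of the 20 most abundant receptor tyrosine kinase genes, red for anti-ENG and blue for IgG control; bars are means of 3 tumours, points are single tumours, and an asterisk marks a member. Genes are ordered by the mean over all 6 tumours; AXL has means of 57.5 FPKM in anti-ENG and 48.5 FPKM in IgG control tumours, and PDGFRB, at 26.6 FPKM in anti-ENG and 54.1 FPKM in IgG control tumours, is above AXL in the IgG control group.

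Of the 52 receptor tyrosine kinases outside the members, 24 were tested, 8 with estimates above 0 and 16 below, at a median log2 fold change of -0.16. By limma 0 passed in either direction, and 3 had an unadjusted p under 0.05, all with lower estimates. These were FLT1, a VEGF receptor gene, at -1.69, PDGFRB and LTK, a kinase related to ALK, at -0.75. EPHA5, an ephrin receptor gene, had 0.73, and its groups did not overlap, as they did not for those 3 genes. Without IgG control 1 the EPHA5 value was 0.31. Of the 24 genes, 1 higher and 4 lower had groups that did not overlap, against 17.3% of all genes tested. The 3 of 24 with an unadjusted limma p under 0.05 stand beside 9.17% of all genes tested, so neither count is read as a result.

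Genes that work downstream of the receptors showed small differences. Of 26 adaptor and effector genes 22 were tested, 10 with estimates above 0 and 12 below, at a median log2 fold change of -0.01. By limma 0 passed in either direction (0 at an unadjusted p under 0.05). SHC1, the adaptor that links receptors to RAS, had -0.41 on the log2 scale (limma adjusted p = 0.529), the transcription factor STAT3 had -0.53, the adaptor CRKL -0.24 and the PI3-kinase subunit gene PIK3CB 0.25. Without anti-ENG 1 the values were -0.25 for SHC1, -0.29 for STAT3 and 0.13 for PIK3CB, and without IgG control 1 as well STAT3 was -0.07. Of 25 genes for brakes and shedding proteases 23 were tested, 4 with estimates above 0 and 19 below, at a median of -0.19. By limma 0 passed in either direction, and SPRED3 alone had an unadjusted p under 0.05. Over all genes tested, 48.8% of the estimates were below 0 and 9.17% had an unadjusted p under 0.05.

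SPRED3, a brake on RAS-ERK signalling, had 1.75, 3.08 and 2.43 FPKM in anti-ENG 1, 2 and 3, against 4.38, 3.27 and 3.42 FPKM in IgG control 1, 2 and 3. Its groups did not overlap (log2 fold change -0.47, limma adjusted p = 0.529). CBLB, a ubiquitin ligase that removes active receptors, had a log2 fold change of -0.31, the phosphatase gene PTPN1 one of -0.26 and LRIG2 one of -0.21. The groups did not overlap for CBLB and PTPN1 either, and PTPN1 was -0.16 without IgG control 1. Groups that did not overlap were thus found in 3 of 23 tested genes of this list and in 17.3% of all genes tested. ADAM10 and ADAM17 encode proteases that shed AXL and MET from the cell surface. ADAM10 averaged 32.9 FPKM in anti-ENG tumours and 32.7 FPKM in IgG control tumours, at a log2 fold change of 0.0066. ADAM17 averaged 18.5 FPKM in anti-ENG tumours and 18.6 FPKM in IgG control tumours, at a log2 fold change of -0.01.

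**Figure D5:**
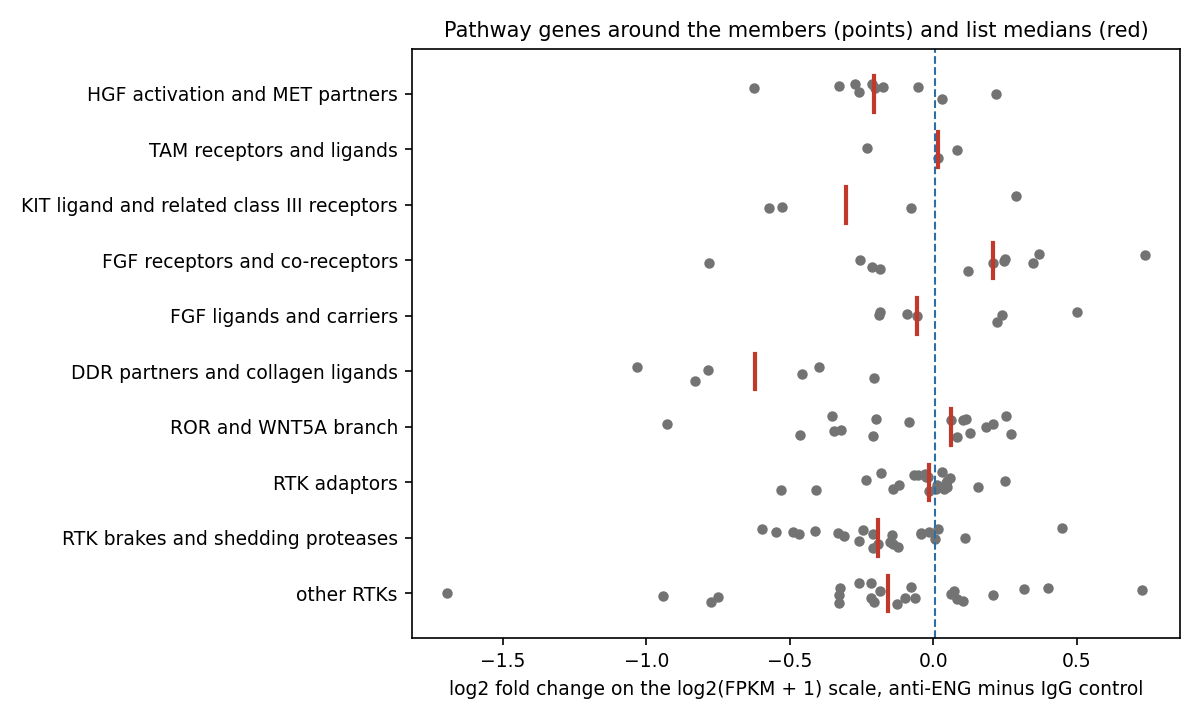
Log2 fold change on the log2(FPKM + 1) scale, anti-ENG minus IgG control, of the tested genes of 10 pathway lists around the members; each point is a gene, red bars are list medians and the dashed blue line is the median of all 12586 genes tested, 0.0065. The list of DDR1 and collagens has the lowest median, -0.62, and the list of FGF receptors and co-receptors the highest, 0.21.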

How the data were processed

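RNA with poly(A) tails from 6 tumours was sequenced, per the labels' protocols. These list TruSeq and NEBNext kits and 2 instruments without assigning them to samples; if these differed between groups, that cannot be told apart from treatment. The deposited FPKM values were made by the authors on GRCh37 (hg19), per the submitters' processing notes, which name Cuffnorm, Cufflinks 2.2.1, TopHat2 2.0.10, FastQC 0.10.1, SAMtools 0.1.1.9 and Bowtie 1.0.0.

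Sample titles gave the groups. FPKM are not counts, so limma 3.58.1 (R 4.3.3) compared the groups on log2(FPKM + 1), using trended variances without covariates. A gene was tested if it averaged 1 FPKM or more across the tumours, which left 12586. The scale understates changes of low genes. Benjamini-Hochberg adjustment ran over all genes tested, two-sided, at a threshold of 0.05. This procedure was first tested on simulated data. The description codes share a number within IgG control 2 and 3 and within anti-ENG 1 and 2, and whether 1 animal carried such tumours is not stated, so p-values measure only the spread between these samples. Members and gene lists were chosen with earlier results of these data known. Named genes were the members, up to 4 tested genes of smallest p in each pathway list, the 2 most similar profiles per member, the 10 most abundant receptor tyrosine kinases and ENG; markers, NUDT6, RPS17L, HGFAC, PLAU, SPINT1, SPINT2, MERTK, PROS1, ROR1, FGFRL1, the other FGF receptor genes, FLT3, CD68, ADAM10 and ADAM17 were added after their values were seen. A gene that this rule picks is not reported here. Alternatives changed the pseudocount, filter, scaling, variance model, sample weights and pairing, and left out tumours. Figures used matplotlib 3.10.9.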

Additional observations from a re-analysis of the deposited data

How the results depend on the processing

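In all 19 alternatives 0 genes passed the adjusted threshold by limma, and 0 members did. Every tested member kept the sign of its log2 fold change in all alternatives run except FGFR1 and HGF; FGF1, FGF2 and ROR2 had no value at a mean of at least 5 FPKM. FGFR1 was -0.0031 with upper quartile rescaling, -0.098 with equal sums of FPKM, and -0.091 with tumours of one code number averaged. With IgG control 1 and anti-ENG 1 both left out, HGF was -0.11. Leaving out 1 tumour at a time gave 0.17 to 0.54 for MET, 0.17 to 0.33 for AXL, -0.091 to 0.15 for FGFR1, -0.69 to -0.45 for DDR2, 0.011 to 0.73 for ROR2, -0.23 to 0.36 for HGF, -0.94 to -0.11 for GAS6, -0.78 to -0.26 for FGF1 and 0.086 to 0.45 for FGF2; the end nearest to or past 0 was reached without anti-ENG 1 for MET, HGF, ROR2, GAS6, FGF1 and FGFR1.

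Other named genes changed sign as follows. With both of these tumours (IgG control 1 and anti-ENG 1) left out, SERPINA5 was 0.13, IL15RA 0.44, KITLG -0.088, CSF1 0.31, CSF1R 0.17 and FGF13 -0.0069. With sample weights IL15RA was 0.12 and CSF1R 0.038. TYRO3 was -0.022 with equal sums of FPKM. LGALS3 was -0.10 with equal sums, -0.085 and -0.14 with quantile and cyclic loess normalization and -0.11 with code numbers averaged, and CSF1R was 0.017 with quantile normalization. Leaving out 1 tumour gave -1.09 to 0.0050 for SERPINA5, -0.51 to 0.14 for IL15RA, -0.16 to 0.16 for LGALS3, -0.00039 to 0.52 for KITLG, -0.19 to 0.094 for CSF1R and -0.43 to 0.034 for FGFBP3. The cause was not tested.

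With the replicate number as a block the DDR2 value was -0.60 (limma adjusted p = 0.641), and 0 genes passed. Deviations of same-numbered tumours correlated across genes at -0.33, 0.19 and 0.037 for numbers 1, 2 and 3. These 3 values show no steady pairing by number, but so few cannot exclude it. The split of unadjusted p under 0.05 was 700 higher and 454 lower, 482 and 518 with upper quartile rescaling, 453 and 498 with cyclic loess and 168 and 1088 with equal sums. With 3 tumours a group and depth unknown, differences the size of most members' intervals could not be resolved.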
